A study of Homo sapiens with 18 samples.

Results

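Peaks of the leukaemia fusion protein AML1-ETO were examined at 10 genes of transforming growth factor beta (TGF-beta) and SMAD signalling, a pathway that members of the miR-130 microRNA family target. The genes were the ligand gene TGFB1, the receptor genes TGFBR1, TGFBR2, ACVR1 and BMPR2, and the SMAD genes SMAD2, SMAD3, SMAD4, SMAD5 and SMAD7. They were taken by name from among 19974 protein-coding genes of the RefSeq annotation of GRCh38, and a peak was counted for a gene if it overlapped the gene body or the 10 kb on either side by at least 1 bp. Of the 10 genes, 9 had a peak in at least 1 of the 4 single-antibody lists (58.4% of all protein-coding genes did) and 7 had a peak in all 4 (37.3%).

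All samples were Kasumi-1 cells, an established human line from acute myeloid leukaemia whose t(8;21) translocation fuses RUNX1 (AML1) to RUNX1T1 (ETO), carrying Flag-tagged AML1-ETO. Every group was transduced, and viable cells positive for GFP were sorted 72 hours later, on day 3. The groups were control or miR-130a knockdown (KD), each profiled by CUT&RUN with an antibody to ETO, with an antibody to Flag, or with mouse IgG, with 3 libraries in each of the 6 groups. What the control cells received, whether the tagged line is 1 clone and whether untagged fusion protein remained in it are not given in the sources used here. In CUT&RUN an antibody directs a nuclease to the bound protein in permeabilised cells, and the released DNA fragments are sequenced.

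Each antibody and condition was represented by 1 list of peak positions without height, score or value per library, so no spread between the 3 libraries and no test could be computed. The depth behind a call is unknown, and a gene listed without a peak is one where no call was made, not one shown to be unbound. The lists held 14264 peaks for control anti-ETO, 22594 for knockdown anti-ETO, 23162 for control anti-Flag and 25961 for knockdown anti-Flag. Lists of positions hold no expression values, so the labelled cell type could not be checked against marker genes. Percentages in brackets beside a count of the 10 genes are the share of all protein-coding genes with the same property, unless another set is named.

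TGF-beta ligands bring together type II and type I receptor kinases at the cell surface. The type I receptor then phosphorylates receptor-regulated SMADs, which join SMAD4 and enter the nucleus to act on target genes, while SMAD7 inhibits the receptors. SMAD2 and SMAD3 act downstream of TGF-beta and activin, and SMAD5 acts downstream of bone morphogenetic proteins (BMPs). In blood formation TGF-beta is known as a signal that keeps haematopoietic stem cells quiescent. AML1-ETO keeps the DNA-binding Runt domain of RUNX1, which recognises the core motif TGTGGT or TGCGGT.

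Sequence was available for the bases just before the gene starts, whether or not a peak lay on them, and not for the peaks elsewhere. All 10 genes were matched by symbol in the RefSeq promoter table (GRCh38.p14), which gave 27 annotated starts for them, and the 250 bases before each start were searched on both strands. Of these 27 stretches, 12 were touched by no peak of the 4 single-antibody lists. The next 4 stretches are shown because they hold a RUNX core motif and differ in which lists covered it. Each reads 5′ to 3′ on the strand of its gene, with capitals marking TGTGGT or TGCGGT, or the reverse complement. They are the starts of BMPR2 (chr2:202376077-202376326, plus strand), an internal start of SMAD3 (chr15:67098429-67098678, plus strand), SMAD4 (chr18:51029963-51030212, plus strand) and SMAD5 (chr5:136132595-136132844, plus strand).
BMPR2: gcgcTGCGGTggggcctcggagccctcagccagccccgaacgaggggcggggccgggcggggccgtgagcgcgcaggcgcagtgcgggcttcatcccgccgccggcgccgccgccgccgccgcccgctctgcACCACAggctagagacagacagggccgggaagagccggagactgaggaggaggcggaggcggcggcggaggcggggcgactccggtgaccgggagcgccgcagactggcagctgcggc
SMAD3 internal start: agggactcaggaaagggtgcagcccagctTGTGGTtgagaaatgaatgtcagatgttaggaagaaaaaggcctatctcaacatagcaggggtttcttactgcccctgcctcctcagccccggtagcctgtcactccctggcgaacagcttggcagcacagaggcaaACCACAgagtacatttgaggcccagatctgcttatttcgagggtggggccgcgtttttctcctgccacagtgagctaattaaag
SMAD4: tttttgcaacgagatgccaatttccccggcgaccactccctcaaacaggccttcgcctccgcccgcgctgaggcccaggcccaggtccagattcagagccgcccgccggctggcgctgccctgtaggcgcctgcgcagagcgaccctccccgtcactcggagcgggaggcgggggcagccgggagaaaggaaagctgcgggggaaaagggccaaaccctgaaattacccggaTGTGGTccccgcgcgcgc
SMAD5: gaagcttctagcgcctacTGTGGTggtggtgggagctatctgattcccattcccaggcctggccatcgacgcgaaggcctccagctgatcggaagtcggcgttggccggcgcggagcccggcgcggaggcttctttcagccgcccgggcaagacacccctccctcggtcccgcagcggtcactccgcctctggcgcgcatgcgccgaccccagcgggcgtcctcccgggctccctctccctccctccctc

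Both core motifs before BMPR2, TGCGGT and a reverse-strand TGTGGT, lay inside peaks of all 4 single-antibody lists. Both TGTGGT motifs before the internal SMAD3 start lay inside a knockdown anti-ETO and a control anti-Flag peak and outside peaks of the other two lists. The TGTGGT that begins 18 bases before the SMAD4 start was inside the knockdown anti-ETO peak only, because the other 3 peaks began downstream of the start. The TGTGGT before SMAD5 lay in no peak. The core motifs before internal starts of TGFBR1, ACVR1 and SMAD7, which are not shown, also lay in no peak.

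The other two stretches are shown because a single list decided the call there. They are the 250 bases before ACVR1 (chr2:157876331-157876580, minus strand), where capitals mark the 121 bases inside a peak that the authors listed as unique to control, and before TGFBR2 (chr3:30606106-30606355, plus strand), where capitals mark the 120 bases inside a knockdown anti-ETO peak.
ACVR1: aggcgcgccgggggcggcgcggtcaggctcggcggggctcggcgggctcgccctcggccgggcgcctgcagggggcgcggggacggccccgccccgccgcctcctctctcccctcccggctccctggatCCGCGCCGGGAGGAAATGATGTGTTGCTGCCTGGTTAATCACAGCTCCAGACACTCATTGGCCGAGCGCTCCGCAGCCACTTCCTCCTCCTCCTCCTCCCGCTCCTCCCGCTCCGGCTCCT
TGFBR2: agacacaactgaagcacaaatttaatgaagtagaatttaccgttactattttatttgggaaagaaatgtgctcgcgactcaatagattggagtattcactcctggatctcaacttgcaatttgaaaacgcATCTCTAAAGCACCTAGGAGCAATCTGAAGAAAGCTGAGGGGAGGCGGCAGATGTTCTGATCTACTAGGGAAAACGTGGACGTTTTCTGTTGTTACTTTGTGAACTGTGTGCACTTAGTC

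Neither stretch holds TGTGGT or TGCGGT. Over the 27 starts, 7 stretches (25.9%) held either form, against 16.3% of all 35116 promoters in the table, 21.2% of the 4023 promoters touched by peaks of all 4 lists and 15.6% of the 25696 touched by none. Of the 6 stretches of these genes that peaks of all 4 lists touched, only the one at BMPR2 held a core motif. The rest of these 6 were at TGFBR1 and SMAD2, and some of them overlap each other. Stretches are thus not independent observations, and TGFBR1 alone gave 8 of the 27. The SMAD palindrome GTCTAGAC was in 0 of the 27 stretches and 0.182% of all promoters. The short SMAD element AGAC was in 20 (74.1%, against 77.5%), the ETS core GGAA in 23 (85.2%, against 92.7%), and the E-boxes CAGCTG and CACCTG were in 3 and 5 stretches (14.0% and 17.5% of all promoters). A match describes letters in the window and is not a measured binding site.

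A peak of control anti-ETO was found at 8 of the 10 genes (47.6% of all protein-coding genes), of knockdown anti-ETO at 9 (53.8%), of control anti-Flag at 9 (50.2%) and of knockdown anti-Flag at 7 (42.2%). The share of genes with a peak in all 4 lists was 7 of 10 here and 37.3% over all protein-coding genes. These genes were long, with a median of 71.3 kb against 24.2 kb, and longer windows can hold more peaks. Among the 8650 protein-coding genes between the shortest and the longest of the 10 (23600 to 191423 bp), the shares were 51.1% for control anti-ETO, 57.5% for knockdown anti-ETO, 52.7% for control anti-Flag and 42.6% for knockdown anti-Flag.

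**Figure D1:**
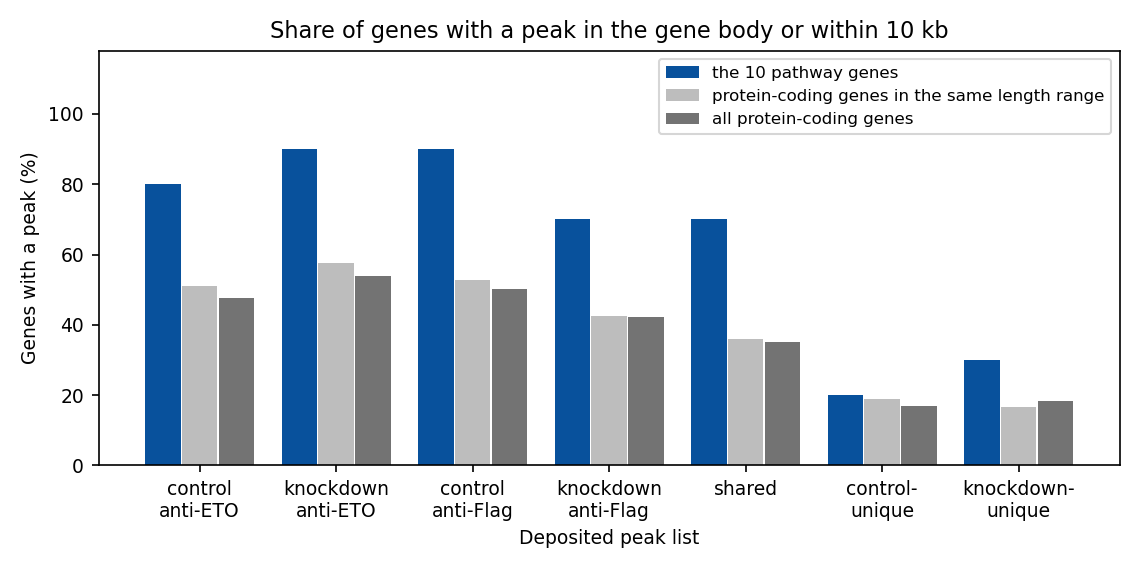
Percentage of genes with at least 1 peak in the gene body or within 10 kb, by deposited list, for the 10 pathway genes, for protein-coding genes in the same length range and for all protein-coding genes. The bars of the 10 genes stand at 7 to 9 genes of 10 in the 4 single-antibody lists and at 2 of 10 in the control-unique list.

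The authors also derived lists of sites called by both antibodies, and split these into shared peaks (both conditions), control-unique and knockdown-unique peaks. A shared peak was found at 7 of the 10 genes (35.1% of all protein-coding genes, 36.0% in the length range): TGFB1, TGFBR1, BMPR2, SMAD2, SMAD3, SMAD4 and SMAD7. Control-unique peaks were found at 2 genes (16.9%, 19.0% in the length range), ACVR1 and SMAD7. Knockdown-unique peaks were found at 3 genes (18.4%, 16.6% in the length range), TGFB1, TGFBR1 and SMAD7, so SMAD7 had 1 peak of each kind. Before that split, 8 genes had a peak called by both antibodies in control (43.8%, 46.5% in the length range) and 7 in knockdown (39.4% and 40.0%). Over all 59098 annotated genes, noncoding ones included, the shares were lower: 26.3% and 30.5% for control and knockdown anti-ETO, 28.6% and 24.1% for anti-Flag, 24.1% and 21.8% for both antibodies, and 19.0%, 9.12% and 9.94% for shared, control-unique and knockdown-unique peaks.

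**Figure D2:**
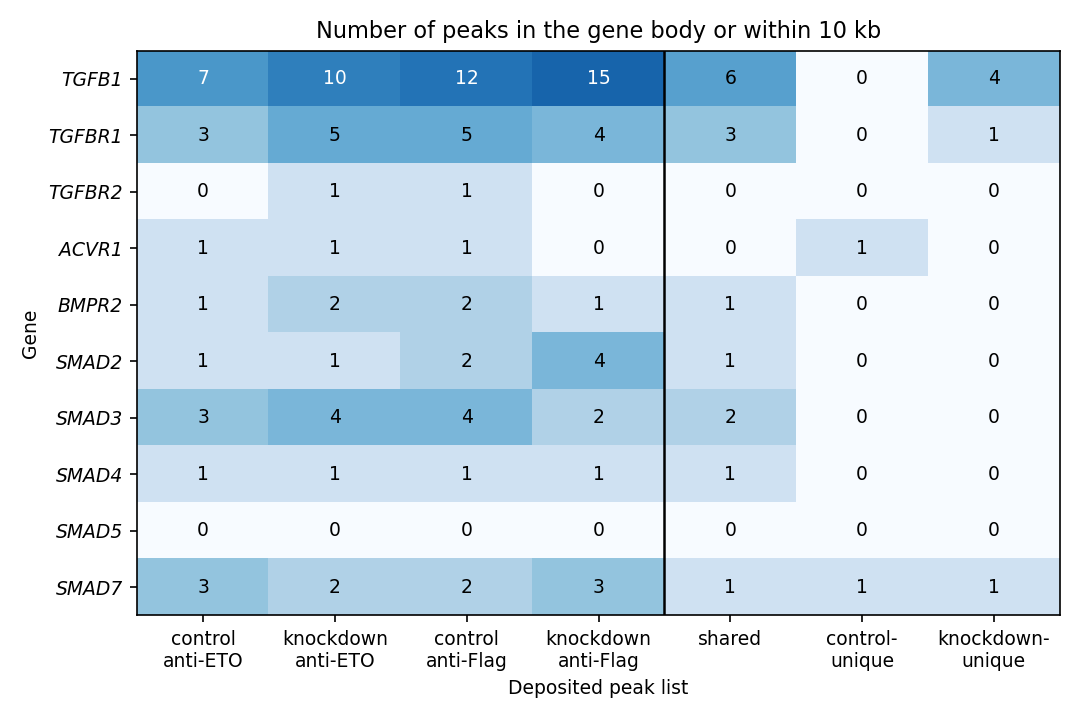
Number of peaks in each gene's window (10 kb beyond either end) by gene (rows) and deposited list (columns), with darker cells for larger counts; the vertical line separates the single-antibody lists from the derived lists. TGFB1 has the largest count in the 4 single-antibody lists and SMAD5 is at 0 in all 7 lists.

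Peaks were unevenly spread over the genes. The window of TGFB1 alone held 7 of 20 control anti-ETO, 10 of 27 knockdown anti-ETO, 12 of 30 control anti-Flag and 15 of 30 knockdown anti-Flag peaks. Per 100 kb of window, the 10 genes together held 1.85 control anti-ETO peaks against 1.22 over all protein-coding genes, and the median of the 10 genes was 1.02. For control anti-Flag the values were 2.78, 1.93 and 1.37. The median number of peaks per gene was 1 for the 10 genes and 0 for all protein-coding genes in control anti-ETO, and 2 and 1 in control anti-Flag.

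TGFB1 encodes the ligand TGF-beta 1 and lies on the minus strand of chromosome 19 (chr19:41330323-41353922). With 7, 10, 12 and 15 peaks in its window it stood at or above the 98.7th percentile of protein-coding genes in each of the 4 lists. Only 3, 2, 3 and 7 of these overlapped the gene body, and the others lay in the flanks. Merging the lists gave 14 regions in its window, of which 6 were called in all 4. The region across the start (chr19:41352413-41354487) was called in all 4 lists, as 1189 bp and 476 bp pieces in control anti-ETO and as a single 2074 bp peak in knockdown anti-ETO. The start itself lay in an anti-ETO peak in both conditions and in no anti-Flag peak. The nearest anti-Flag peaks stopped 14 bp from it in control and 22 bp in knockdown. The region next to it in the gene body (chr19:41350509-41352158) was also called in all 4. A further region called in all 4 lay past the end of the gene, between TGFB1 and CCDC97 (chr19:41326465-41329287), where each list had a peak of 2363 to 2714 bp, and control anti-Flag had a second one of 225 bp.

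The 4 knockdown-unique peaks of the TGFB1 window all lay outside the TGFB1 body. They overlapped the neighbouring genes CCDC97 (chr19:41323079-41324263 and chr19:41324419-41324788) and B9D2 (chr19:41358394-41358840 and chr19:41362411-41362804). In control, anti-Flag but not anti-ETO had called the first 3, and neither antibody had called the last. At the last one the nearest control anti-ETO peak was 1097 bp away and the nearest control anti-Flag peak 847 bp away. Inside the TGFB1 body, 4 regions centred 11.05 to 19.09 kb from the start were called by knockdown anti-Flag and by no other list, with widths of 167, 297, 226 and 569 bp.

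Chromosome 19, where TGFB1 lies, was rich in such peaks. A knockdown-unique peak was near 43.2% of its 1451 protein-coding genes, and 88 of them (6.06%) had at least 4, as TGFB1 did. On chromosome 18, which carries SMAD2, SMAD4 and SMAD7, a knockdown-unique peak was near 3.7% of 270 protein-coding genes, and none of those had 4.

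**Figure D3:**
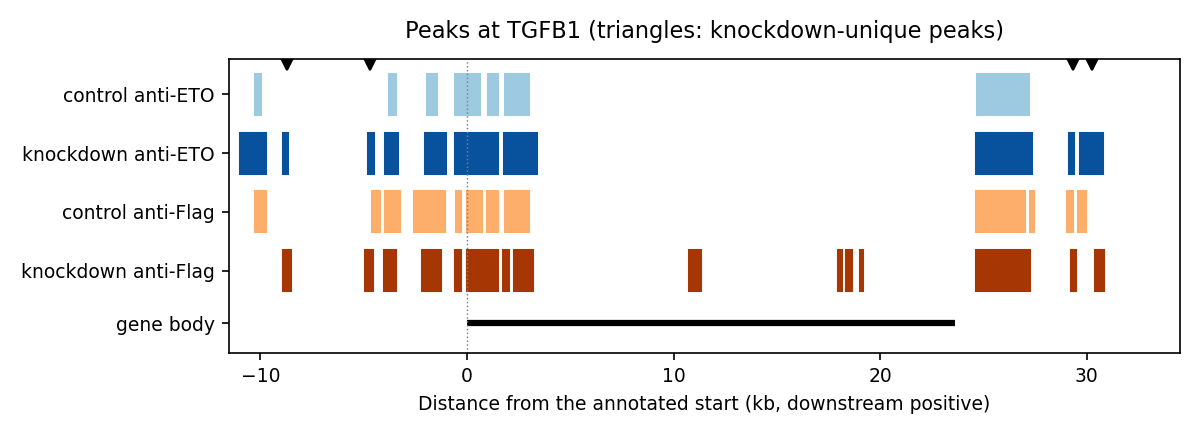
Peaks of the 4 single-antibody lists in the TGFB1 window as bars along the distance from the annotated start (kb, downstream positive), with the gene body as a black line and the 4 knockdown-unique peaks as triangles. Bars of all 4 lists cluster around the start and past the gene end, and only knockdown anti-Flag has bars between 10 and 20 kb inside the gene; a knockdown anti-Flag peak beyond the left edge of the window is not drawn.

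The receptor genes differed widely. TGFBR1, the type I receptor of TGF-beta (chr9:99103647-99154192, plus strand), had 3 control anti-ETO, 5 knockdown anti-ETO, 5 control anti-Flag and 4 knockdown anti-Flag peaks. Its window held 5 regions, 3 of them called in all 4 lists. A pair of those lay over annotated internal starts (chr9:99104514-99105249 and chr9:99105543-99106317), while the outermost of the 8 annotated starts was in no peak. The third lay 47.0 kb into the gene (chr9:99150407-99150817).

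The knockdown-unique peak of TGFBR1 was narrow, 250 bp at chr9:99109386-99109635, at least as wide as only 3.7% of the knockdown peaks called by both antibodies. It overlapped a control anti-Flag peak of 488 bp, and the nearest control anti-ETO peak was 3166 bp away. At the fifth region (chr9:99118943-99119533), control anti-Flag and knockdown anti-ETO had a call and the other two lists had none.

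TGFBR2, the type II receptor that binds the ligand (chr3:30606356-30694142, plus strand), had 1 knockdown anti-ETO peak and 1 control anti-Flag peak and none in the other two lists. They did not overlap: the anti-ETO peak of 220 bp lay on the outermost start (chr3:30606236-30606455), and the anti-Flag peak of 243 bp lay 1754 bp upstream of it (chr3:30604360-30604602). No peak called by both antibodies was listed for it in either condition.

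ACVR1, a type I receptor for BMPs and activins (chr2:157736446-157876330, minus strand), had a single site, at its outermost start. Control anti-ETO called 287 bp there, knockdown anti-ETO 307 bp and control anti-Flag 218 bp, and knockdown anti-Flag had no call. The site was listed as control-unique (chr2:157876165-157876451). The anti-ETO call was kept in knockdown, and the nearest knockdown anti-Flag peak was 579943 bp away. The control-unique peak was at least as wide as 18.3% of the peaks in its list. The knockdown anti-ETO peaks of ACVR1 and TGFBR2 were both absent when that list was shortened, by width, to the number of peaks in the control list.

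BMPR2, the type II receptor of BMPs (chr2:202376327-202567749, plus strand), was called across its start in all 4 lists, with widths of 1235 bp in control anti-ETO, 1349 bp in knockdown anti-ETO, 1324 bp in control anti-Flag and 1228 bp in knockdown anti-Flag. A second region just downstream (chr2:202377210-202378268) was called by knockdown anti-ETO over 1047 bp and by control anti-Flag over 406 bp. Neither control anti-ETO nor knockdown anti-Flag called it.

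Among the SMAD genes, SMAD2, a receptor-regulated SMAD (chr18:47808957-47930872, minus strand), had the longest merged region over a start among the 10 genes, 2821 bp against 2075 bp at TGFB1. Control anti-ETO covered it with 1 peak of 2384 bp, knockdown anti-ETO with 1 of 2806 bp and control anti-Flag with 1 of 2542 bp, each at or above the 98.7th percentile of width in its list. Knockdown anti-Flag covered the same site with 3 separate peaks of 1247, 225 and 830 bp. The change from 2 to 4 anti-Flag peaks at SMAD2 thus went with fewer base pairs in peaks, 2883 bp in control and 2502 bp in knockdown.

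SMAD3, the other TGF-beta SMAD (chr15:67065602-67195169, plus strand), had 3 control anti-ETO, 4 knockdown anti-ETO, 4 control anti-Flag and 2 knockdown anti-Flag peaks in 6 regions. Those at the outermost start (chr15:67065181-67066198) and 15.6 kb into the gene (chr15:67080932-67081529) were called in all 4 lists and listed as shared. At the start, the knockdown anti-ETO peak was 1015 bp and the control one 359 bp, while the knockdown anti-Flag peak was 410 bp and the control one 854 bp. The region at the internal start whose sequence holds 2 TGTGGT motifs was called by knockdown anti-ETO and control anti-Flag. Another 3 regions were called in 1 list each.

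SMAD4, the common partner of the receptor-regulated SMADs (chr18:51030213-51085042, plus strand), had exactly 1 peak in each of the 4 lists, all at its start, of 1150 bp in control anti-ETO, 1227 bp in knockdown anti-ETO, 945 bp in control anti-Flag and 714 bp in knockdown anti-Flag. The knockdown anti-ETO peak reached upstream over the start, and the other 3 began 37 to 50 bp downstream of it. SMAD5, a BMP-responsive SMAD (chr5:136132845-136182733, plus strand), had no peak in any list. No peak in any of the 4 lists was also the state of 41.6% of all protein-coding genes, and of 38.0% of those in the length range of the 10 genes.

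SMAD7, the inhibitory SMAD that TGF-beta induces (chr18:48919853-48950965, minus strand), had 3 regions with different calls. The one about 1.8 kb upstream of the start (chr18:48952301-48953246) was called in all 4 lists and listed as shared. The one nearer to the start (chr18:48951292-48952011) was listed as knockdown-unique: control anti-ETO already had a 360 bp peak in it, control anti-Flag had none, and the nearest control anti-Flag peak was 289 bp away. The one 21.8 kb into the gene (chr18:48929047-48929253) was listed as control-unique. Both control antibodies called it, over 189 and 203 bp, and the nearest knockdown peaks of either antibody were 22038 and 22370 bp away.

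**Figure D4:**
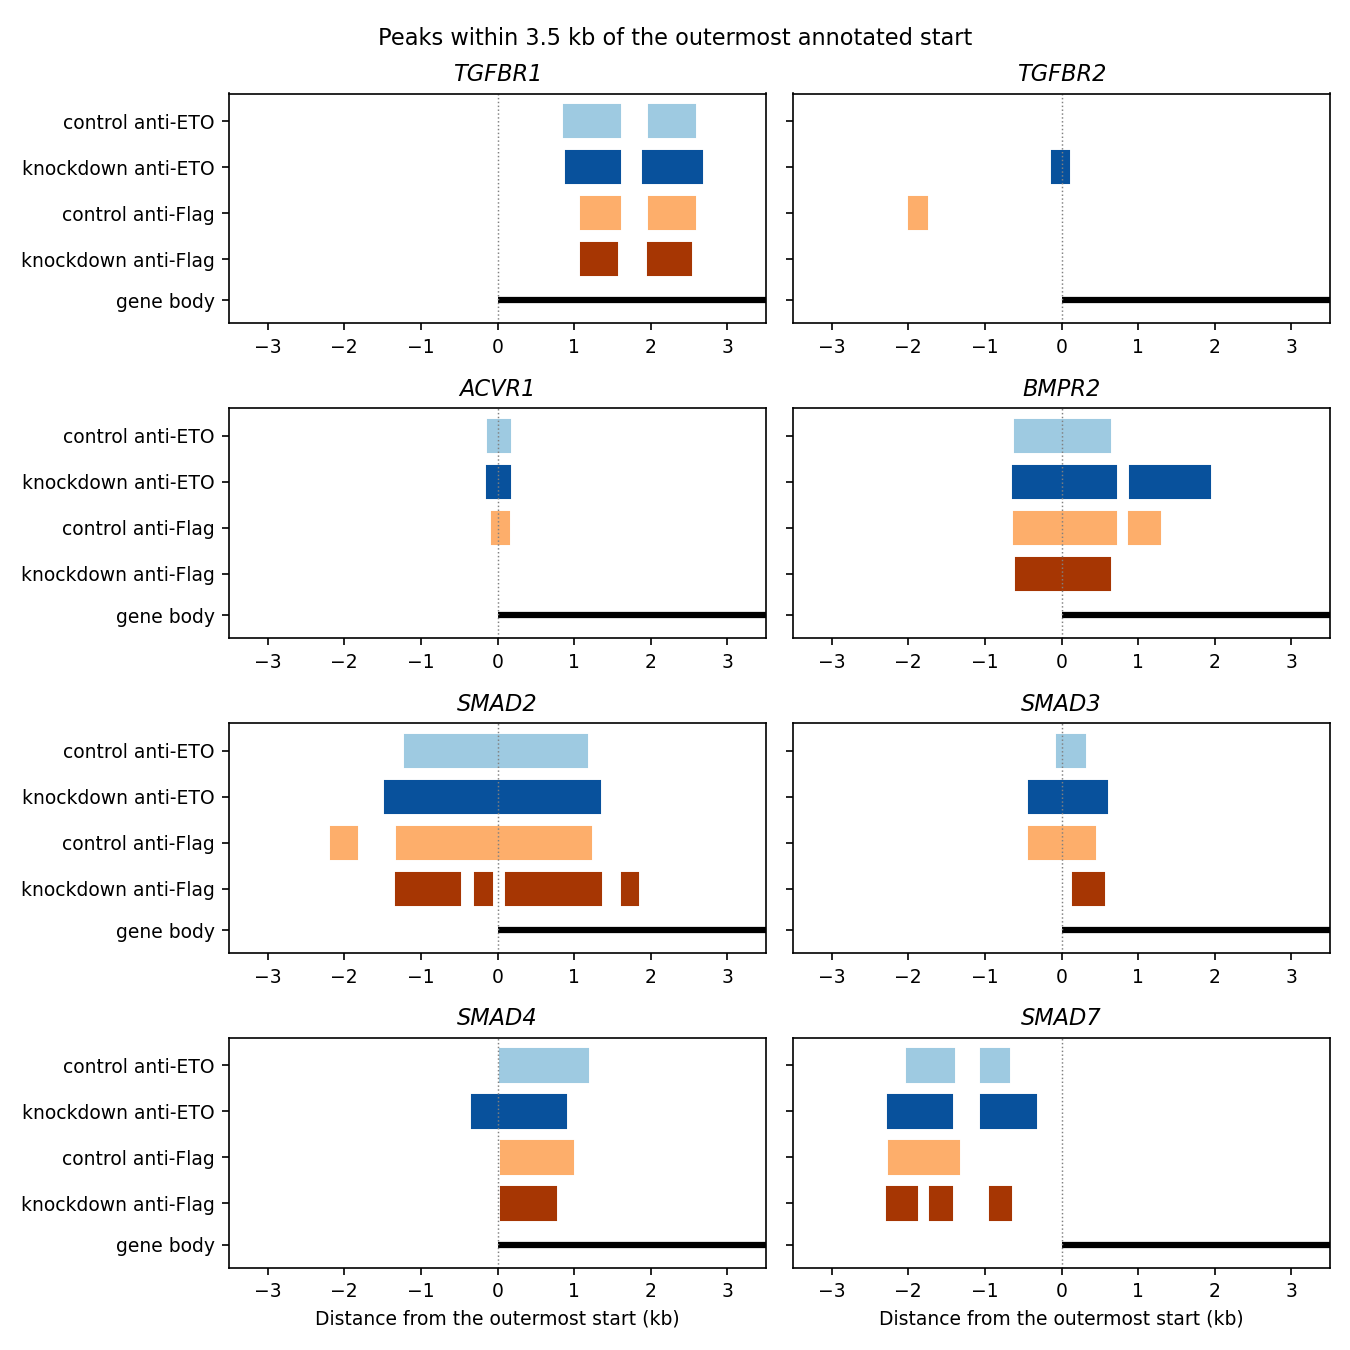
Peaks of the 4 single-antibody lists within 3.5 kb of the outermost annotated start (dotted line) of 8 genes, as bars along the distance in kb, with the gene body as a black line. ACVR1 lacks a knockdown anti-Flag bar, SMAD2 shows 1 long bar in 3 lists and several shorter ones in knockdown anti-Flag, and the SMAD7 bars lie upstream of the start.

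Most of these genes had a peak at a start. A peak within 1 kb of an annotated start was found for 8 genes in control anti-ETO (37.0% of 15812 protein-coding genes with an annotated start), 9 in knockdown anti-ETO (43.6%), 7 in control anti-Flag (38.5%) and 7 in knockdown anti-Flag (31.1%). For sites called by both antibodies it was 7 genes in each condition (33.5% in control, 30.0% in knockdown), for shared peaks 6 (26.3%), for control-unique peaks 1 (9.13%) and for knockdown-unique peaks 1 (6.58%). The gene with a start called by control anti-ETO but not by control anti-Flag was SMAD7, whose control anti-Flag peak lay 1336 bp upstream.

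The comparison of conditions asks whether occupancy at these genes differed after miR-130a knockdown. The 10 windows held 20 anti-ETO peaks in control and 27 in knockdown, a ratio of 1.35, against 1.58 for the whole lists. This difference of 7 peaks turned to -1 when the longer knockdown list was cut, by width, to the number of control peaks. They held 30 anti-Flag peaks in each condition, against a ratio of 1.12 for the whole lists. More anti-ETO peaks in knockdown were counted at 5 genes (32.4% of all protein-coding genes), fewer at 1 (5.05%) and equal numbers at 4. More anti-Flag peaks in knockdown were counted at 3 genes (18.7%) and fewer at 5 (21.8%).

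Counts of peaks change when a site is split, so the length inside peaks was compared as well. In anti-ETO the length was greater in knockdown at 9 of the 10 genes (47.4% of all protein-coding genes) and smaller at 0 (8.03%); SMAD5 had none. In anti-Flag it was smaller in knockdown at 8 genes (35.0%) and greater at TGFB1 alone (17.5%). These shares include genes without any peak. Of the 11668 genes with a peak in any of the 4 lists, 9466 were longer in anti-ETO and 6998 shorter in anti-Flag in knockdown. At 8 of the 10 genes both held, longer in anti-ETO and shorter in anti-Flag, against 27.0% of all protein-coding genes and 46.2% of the 11668 with a peak in any of the 4 lists. Within gene bodies, with no flank, both held at 3 of the 10, and no share over all protein-coding genes is given for that setting. Anti-Flag is directed at the tag of the fusion protein and anti-ETO at its ETO part. Whether untagged fusion protein remained in the cells is not given. The lists have no replicate, so whether this difference between the antibodies would recur in other libraries was not tested. The exception was TGFB1, where both were longer in knockdown.

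At SMAD3 the anti-ETO peaks covered 1039 bp (control) and 2253 bp (knockdown), and the anti-Flag peaks 2044 bp and 735 bp. At TGFBR1 the anti-ETO lengths were 1701 and 2642 bp, and the anti-Flag lengths 2371 and 1587 bp. At BMPR2 the anti-ETO lengths were 1235 and 2396 bp and the anti-Flag lengths 1730 and 1228 bp. These 3 receptor and SMAD genes thus had opposite shifts in the 2 antibodies, and at ACVR1 and TGFBR2 no base pair was left in knockdown anti-Flag peaks. SMAD4 differed little in anti-ETO, with 1150 and 1227 bp, and its anti-Flag lengths were 945 and 714 bp. SMAD2 and SMAD7 were also longer in anti-ETO and shorter in anti-Flag in knockdown. At TGFB1 the anti-ETO lengths were 6245 and 10212 bp, and the anti-Flag lengths 8822 and 9817 bp. Summed over the 10 windows, knockdown had 1.55 times the control length in anti-ETO (1.67 over the whole lists) and 0.861 times in anti-Flag (0.975 over the whole lists). Without TGFB1 the ratios were 1.5 and 0.668.

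**Figure D5:**
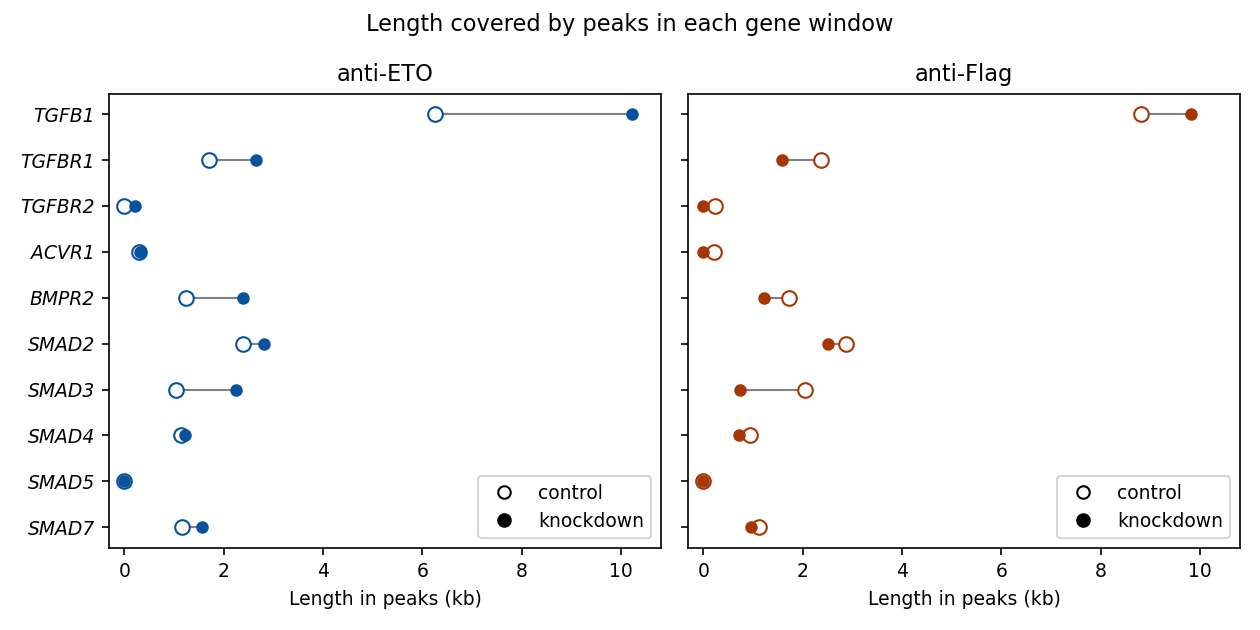
Length inside peaks (kb) in the window of each gene, in control (open circles) and knockdown (filled circles), for anti-ETO (left) and anti-Flag (right). Filled circles lie to the right of open ones at 9 genes in anti-ETO and to the left at 8 genes in anti-Flag, and SMAD5 is at 0.

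Merging the 4 lists gave 37 regions in the 10 windows, of 35622 in all. Of these, 15 (40.5%) were called in all 4 lists, against 24.8% of all merged regions, and 11 (29.7%) in 1 list, against 44.3%. Without TGFB1, 9 of 23 regions were called in all 4. Knockdown anti-Flag was the only caller of 5 regions (13.5%, against 22.3% of all), 4 of them inside TGFB1 and 1 at SMAD2. The combination of knockdown anti-ETO with control anti-Flag, each without the matching call in the other condition, made up 3 regions (8.11%, against 3.75%), at TGFBR1, BMPR2 and SMAD3.

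Over the 8 unique peaks of these windows, the call in the other condition was by anti-Flag alone at 4, by anti-ETO alone at 2 and by neither at 2. The 4 with anti-Flag alone were knockdown-unique peaks, 3 at TGFB1 and 1 at TGFBR1. Over all knockdown-unique peaks, 55.1% of 4617 had a control call by anti-Flag alone, 5.83% by anti-ETO alone and 38.1% by neither. The 2 with anti-ETO alone were the control-unique peak of ACVR1 and the knockdown-unique peak of SMAD7. Over all 3059 control-unique peaks, 74.7% had a knockdown call by anti-ETO alone, 3.17% by anti-Flag alone and 20.2% by neither.

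A wider list of 61 further genes of the pathway, from ligands to common targets, was close to the background. In this paragraph the first percentage is of the 61 genes and the second of all protein-coding genes. Control anti-ETO had a peak at 27 of them (44.3%, against 47.6%) and knockdown anti-ETO at 35 (57.4%, against 53.8%). Control anti-Flag had a peak at 33 (54.1%, against 50.2%) and knockdown anti-Flag at 25 (41.0%, against 42.2%). Shared peaks were found at 20 (32.8%, against 35.1%). Control-unique peaks were found at 10 (16.4%, against 16.9%) and knockdown-unique peaks at 12 (19.7%, against 18.4%). The longer anti-ETO with shorter anti-Flag length was found at 15 (24.6%, against 27.0%).

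By class, a peak in all 4 lists (37.3% of all protein-coding genes) was found at 2 of 14 ligand genes, 2 of 10 other receptors and co-receptors, 5 of 11 extracellular regulators, 9 of 15 intracellular regulators, 3 of 8 common targets and 0 of 3 other SMAD genes. No peak in any of them (41.6%) was the state of 8 ligand genes, 5 receptors, 3 extracellular and 3 intracellular regulators, 1 target and 1 SMAD gene. Whether the classes differ was not tested. SKI, a SMAD corepressor among the intracellular regulators, had 8 control and 13 knockdown anti-ETO peaks. The most shared peaks were at JUNB (6) and SKI (6), followed by GDF15 (4), LTBP4 (4) and LTBP3 (3).

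Knockdown-unique peaks without control-unique ones were found at GDF15 (3), AMH (2), ENG (2), ACVR2B (1), LTBP2 (1), LTBP3 (5), TGIF1 (1), ID2 (1) and JUNB (1). LTBP3 encodes a protein that stores latent TGF-beta in the matrix, and 4 of the 5 peaks at LTBP3 lay inside the gene. ENG and TGIF1 each had 1 inside the gene, and every one of those at GDF15, AMH, ACVR2B, LTBP2, ID2 and JUNB lay in a neighbouring gene or outside annotated genes. Control-unique peaks without knockdown-unique ones were found at BMP4 (1), BMP6 (1), GDF11 (2), NOG (1), SKIL (1), NEDD4L (1) and ID1 (2). LTBP4, SKI and TGIF2 had both kinds.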

How the data were processed

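CUT&RUN libraries of 6 groups of 3 were sequenced as 75-bp pairs, with 40 M reads planned, per the labels' protocols. The authors deposited 9 interval lists with chromosome, start and end, without a header, score or p-value. Builds hg38 and sacCer3 and the tools fastp 0.19.5, Bowtie2 2.3.5, MACS2 2.2.5 and HOMER 4.8 are named in the submitters' processing notes without role or settings. The threshold, use of IgG and handling of replicates are not given in the sources used here. A longer or more permissive list yields more peaks near any gene, and a site split into pieces yields more peaks in the same length.

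Overlaps were computed in Python 3.11.15 with numpy 2.4.6 and pandas 2.3.3, and plotted with matplotlib 3.10.9. The functions were tested on simulated intervals, and counts for the 10 genes were the same with bedtools 2.31.1 in all 9 lists. Positions count from 1. Gene positions and promoters are from RefSeq GRCh38.p14, the same assembly as hg38; all 10 symbols matched, and exons were not annotated. Genes were named by a rule: all 10, then from the wider list those with a unique peak or among the 5 with the most shared peaks. The genes and lists were chosen with earlier results of these data known, so no test over them is given. Alternatives were other flanks, overlap rules, list lengths, distances and gene backgrounds. The length-range background, leaving out TGFB1 and the reruns of the length and opposite-direction counts were chosen after seeing the data.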

Additional observations from a re-analysis of the deposited data

Results flagged for a closer look

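At 5 of the 10 genes the number of peaks moved in opposite directions in the 2 antibodies, against 10.7% (2129) of all protein-coding genes. That share and those below include genes without any peak (41.6% in the main setting), which cannot show opposite directions. All 2129 were among the 11668 genes with a peak in any of the 4 lists. Each direction rests on 1 list per condition, and the difference was not tested. Knockdown minus control was 2 peaks in anti-ETO and -1 in anti-Flag at TGFBR1. It was 1 and -1 at TGFBR2, where the 2 peaks did not overlap. It was 1 and -1 at BMPR2. It was 1 and -2 at SMAD3. In counts SMAD7 went the other way, with -1 in anti-ETO and 1 in anti-Flag. Its length inside peaks did not, being 1158 bp in control and 1567 bp in knockdown for anti-ETO. For anti-Flag the SMAD7 lengths were 1123 and 958 bp. Genes with opposite directions of the counts were fewer with shorter lists. When knockdown peaks were cut by width to the control numbers, there were 3 (TGFBR1, BMPR2 and SMAD7), against 7.30% of all protein-coding genes. With all 4 lists at the shortest length it was 2 (TGFBR1 and BMPR2), against 6.67%, and with the wider 50% of each list 2 (TGFBR1 and SMAD3), against 6.27%.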

How the results depend on the processing

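No paired analysis was possible because the lists carry no values per replicate, and for the same reason no replicate could be left out. The anti-ETO difference in peaks, knockdown minus control in the 10 windows, was 7. It turned to -1 when the widest knockdown peaks were kept up to the number in the control list, and to -1 with all 4 lists at the shortest length. It was 3 without a flank, 4 with a flank of 5 kb and 4 without TGFB1. For anti-Flag the difference of 0 became -1 without a flank, -3 with 50 kb, -1 with the wider 50% of each list, -1 with shortened knockdown lists, -5 with all 4 at one length and -3 without TGFB1. The number of genes with a longer anti-ETO length in knockdown was 6 to 9, and with a shorter anti-Flag length 6 to 8, as deposited and over the 7 other flanks and list lengths run. Both together held at 8 genes, at 3 without a flank and at 6 to 8 in the other 6 settings. For these length counts, no share over all protein-coding genes is given beyond the lists and flank of the main setting. Opposite directions of the counts fell from 5 genes to 3 with shortened knockdown lists, 2 with all 4 at one length and 2 with the wider 50%. These counts of genes were rerun after seeing the data.

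Without a flank the windows held 17 knockdown anti-ETO, 18 control anti-Flag and 17 knockdown anti-Flag peaks, and 1 gene with 1 knockdown-unique peak. With 5 kb they held 3 knockdown-unique peaks, with 25 kb 4 control-unique peaks, and with 50 kb 6 control-unique peaks at 4 genes. With the wider 50% of each list they held 11 control anti-ETO, 18 control anti-Flag and 17 knockdown anti-Flag peaks, 8 shared peaks at 4 genes, 2 knockdown-unique and 0 control-unique peaks at 0 genes. With shortened knockdown lists they held 2 knockdown-unique peaks, and with all 4 at one length 17 knockdown anti-Flag peaks and 1 gene with 1 knockdown-unique peak. For these counts no share over all protein-coding genes is given, and the shares of the main setting do not apply to them. Counting gaps of up to 500 bp as overlap left 6 regions called in 1 list. Over all 59098 annotated genes the background shares were 26.3% and 30.5% for control and knockdown anti-ETO, 28.6% and 24.1% for anti-Flag, and 19.0%, 9.12% and 9.94% for peaks listed as shared, control-unique and knockdown-unique. Depth is unknown in all lists.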

Other observations

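Between 10 and 50 kb from the 10 genes lay 6 more unique peaks. The 4 control-unique ones were near SMAD2 (chr18:47953351-47954232, 22.5 kb from the gene, in no annotated gene), SMAD7 (chr18:48897154-48897708, 22.1 kb away, in no annotated gene) and TGFBR1 (chr9:99057893-99058078 and chr9:99059278-99059772, both in the collagen gene COL15A1). The 2 knockdown-unique ones were near TGFB1 (chr19:41308458-41309063 in LOC105372401 and chr19:41311141-41311468 in CCDC97). With them, TGFB1 had 6 knockdown-unique peaks within 50 kb, and no control-unique peak. These peaks were chosen after seeing the data.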
